A study of Homo sapiens with 8 samples.

Results

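MOLM-13 cells, a human line grown from an acute myeloid leukemia, were compared after 1 course of the vehicle DMSO with the same line before any treatment. The comparison rests on 2 of the 8 samples in the series, the library labelled parental replicate 2 and the library labelled DMSO course 1. It was read across the 10699 genes, of 58735 counted, whose mean over both libraries was at least 5 CPM (read counts scaled to a common library size). RNA from the pelleted cultures was sequenced in bulk. The study asked how the line acquires resistance to busulfan, a DNA-alkylating drug given before stem cell transplantation, and the DMSO cultures were its drug-free arm. The parental cells were untreated and are described as having at most 20 passages. The cells of DMSO course 1 were carried in parallel with the first busulfan exposure, which lasted 6 h, and received 1% DMSO in its place. Busulfan-resistant cells are described as having at most 60 passages, and no passage number is given for the DMSO cultures, so passage and the DMSO course cannot be told apart. After each course cells were washed and grown until viability had recovered. Both libraries come from 1 cell line in RPMI medium with serum, with 1 library on each side. There is therefore no replicate check on any difference given here, and no test and no p-value is reported. The libraries of DMSO courses 3 and 5, the other 2 analysed, are given beside these 2, and all 3 DMSO libraries were set against the same parental library.

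Several pathways that the comparison turns on have well-known controls. In low oxygen the hypoxia-inducible factors escape prolyl hydroxylation and turn on glycolytic enzymes, glucose carriers, mitophagy receptors and the hydroxylases themselves, through elements with the core ACGTG. When amino acids run short or proteins misfold, the factor ATF4 turns on enzymes that make serine, asparagine and proline, amino acid transporters, tRNA synthetases and the glutathione-degrading enzyme CHAC1, through elements close to TGATGNAA. Growing leukemia cells also make ribosomes, a program that MYC drives in part through the E-box CACGTG.

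The promoter stretches shown here belong to genes of the hypoxia and ATF4 groups, which as groups differed from parental in opposite directions. ANKRD37 was not among the hypoxia genes at least 2-fold higher. Each is 80 bases, 5′ to 3′ on the gene's own strand, from RefSeq on GRCh38.p14. Capitals mark ACGTG in the first 4 and TGATGNAA in the last 2, on either strand, so that a match on the other strand reads as its reverse complement and matches on both strands run together as CACGTG. ENO2 lies at chr12:6914424-6914503 on the plus strand, P4HA1 at chr10:73096911-73096990 on the minus strand, ANKRD37 at chr4:185396641-185396720 on the plus strand and BNIP3 at chr10:131982016-131982095 on the minus strand. CHAC1 lies at chr15:40953226-40953305 on the plus strand and ASNS at chr7:97872433-97872512 on the minus strand. The marked match starts 118 bases before the gene's start in ENO2, 86 in P4HA1, 162 in ANKRD37, 134 in BNIP3, 209 in CHAC1 and 68 in ASNS.
ENO2: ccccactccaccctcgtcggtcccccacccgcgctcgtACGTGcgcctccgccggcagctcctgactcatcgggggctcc
P4HA1: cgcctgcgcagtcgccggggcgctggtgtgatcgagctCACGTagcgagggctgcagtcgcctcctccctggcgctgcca
ANKRD37: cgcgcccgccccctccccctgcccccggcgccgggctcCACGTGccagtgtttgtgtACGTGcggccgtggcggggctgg
BNIP3: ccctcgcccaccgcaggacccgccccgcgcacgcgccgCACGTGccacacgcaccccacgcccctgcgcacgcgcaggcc
CHAC1: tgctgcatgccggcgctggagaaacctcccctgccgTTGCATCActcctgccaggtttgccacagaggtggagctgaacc
ASNS: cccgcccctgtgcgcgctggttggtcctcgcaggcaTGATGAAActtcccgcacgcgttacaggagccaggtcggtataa

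DMSO course 1 differed from the parental cells in several directions at once. The genes CHRDL1, CDX2, URAD, CHAC1, C3orf80 and BARX1 were the lowest of the named genes relative to parental. Genes of glycolysis and hypoxia were higher, and genes for serine synthesis, amino acid import, tRNA charging, DNA replication and ribosome assembly were lower. Genes at least 2-fold apart numbered 852 of 10699 (7.96%), with a counting interval of the ratio that excluded 1. Of these, 398 (3.72%) were higher in DMSO course 1 and 454 (4.24%) were lower. The intervals are exact binomial 95% intervals of the 2 counts and cover counting error only, not the spread between cultures. The median log2 ratio of DMSO course 1 to parental was 0.02 over all genes tested, the middle 50% of genes lay between -0.34 and 0.34, and 73.2% were within 1.5-fold of the parental level.

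The largest changes were losses. At least 4-fold lower were 50 genes (0.467%), and at least 4-fold higher were 29 (0.271%). The depth was large enough for small ratios to lie outside counting error: 4706 genes (44%) were above the parental level by any amount and 4319 (40.4%) below it. The balance of higher and lower genes moved with the scaling. Of the called genes, 46.7% were higher with TMM scaling, 29.5% when CPM was taken over total gene counts and 31.0% over totals without mitochondrially encoded genes. Scaling by total gene counts lowered every log2 ratio by 0.11, which took TXNIP, MSMO1, CEBPD, FCER1G, DDB2, STAT2, KLF10 and KLHL24 to less than 2-fold higher.

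**Figure D1:**
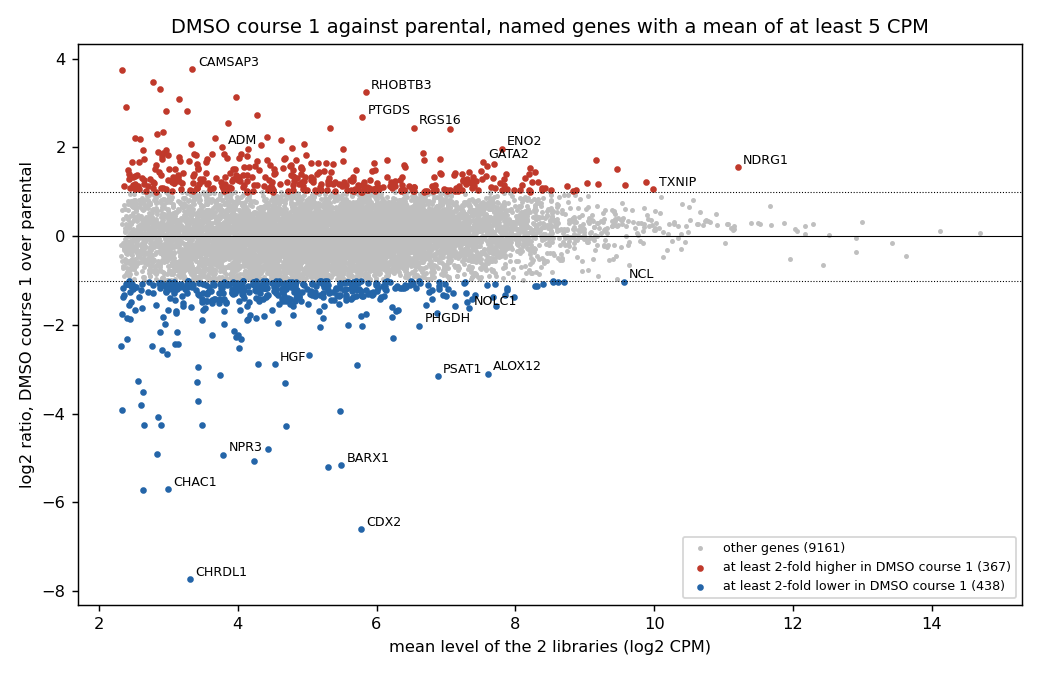
Each point is 1 tested gene that has a name, plotted by its mean level in the 2 libraries (x, log2 CPM) and its log2 ratio of DMSO course 1 to parental (y). The 367 named genes at least 2-fold higher are red and the 438 at least 2-fold lower are blue; unnamed clone genes are not drawn, and the largest ratios are those of the lower genes at the bottom, from CHRDL1 at -7.73 upward.

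CHRDL1 (ENSG00000101938, chromosome X), which encodes a secreted antagonist of bone morphogenetic proteins, had 1168 counts in parental cells and 4 in DMSO course 1 (19.7 and 0.0929 CPM). Its log2 ratio of -7.73 (interval -9.61 to -6.37) was the lowest of the named genes, and no counts were listed in courses 3 and 5. CDX2, a homeobox factor of the gut that many myeloid leukemias express, stood at 108 CPM (6400 counts) in parental cells and 1.11 CPM (48 counts) in DMSO course 1, which is 97.1-fold lower. The gene beside it on chromosome 13, URAD, an enzyme gene of urate breakdown, stood at 12.2 and 0.232 CPM and had a log2 ratio of -5.71 (-6.78 to -4.83). The starts of the neighbours lie 15.6 kb apart, and courses 3 and 5 had 0.199 and 0.154 CPM of URAD. BARX1, a homeobox factor of stomach and jaw development, went from 87.6 to 2.44 CPM, a log2 ratio of -5.17 (-5.46 to -4.89). In bulk RNA, fewer cells that express a gene and less of its RNA per cell cannot be told apart.

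The rest of the 15 genes with the lowest ratios had varied roles. NPR3, the clearance receptor for natriuretic peptides, had 26.8 CPM in parental cells and 0.882 CPM in DMSO course 1. NRP2, a coreceptor for semaphorins and VEGF, had 42.0 and 1.51 CPM. FAT1, an atypical cadherin, had 21.2 and 1.11 CPM, and BMPR1A, a receptor for bone morphogenetic proteins, had 13.7 and 0.812 CPM. ANGPT1, the ligand of the TIE2 receptor, had 14.1 and 0.743 CPM. These 5 genes were also at 3.17 CPM or lower in courses 3 and 5, so the parental library alone stood high. The remaining genes of this rank were C3orf80, WWC2, the tyrosine phosphatase gene PTPN13, the synaptic scaffold gene HOMER2 and the Golgi GTPase gene RAB6B, with log2 ratios from -5.20 to -4.25. HGF, hepatocyte growth factor, stood at 40.8 CPM in parental cells and 5.52, 7.07 and 4.48 CPM in courses 1, 3 and 5. The 12-lipoxygenase gene ALOX12 had the next largest CPM difference after NCL among named genes 2-fold lower, from 349 CPM in parental cells to 40.6 CPM in DMSO course 1, with 29.1 and 10.9 CPM in courses 3 and 5.

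CHAC1 stood apart in the later courses. It had 928 counts in parental cells and 13 in DMSO course 1 (15.7 and 0.302 CPM), a log2 ratio of -5.70 (-6.61 to -4.92). In courses 3 and 5 it stood at 49.9 and 51.6 CPM, above the parental level. The lipolysis inhibitor gene G0S2 also dipped in course 1 alone, with 9.45, 0.627, 10.4 and 17.1 CPM in parental cells and courses 1, 3 and 5.

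Among the higher genes CAMSAP3 (ENSG00000076826, chromosome 19), which encodes a binder of microtubule minus ends, stood at 1.40 CPM (83 counts) in parental cells and 18.97 CPM (817 counts) in DMSO course 1. Its log2 ratio was 3.76 (3.43 to 4.10), the highest of the named genes, and courses 3 and 5 had 15.6 and 13.0 CPM. RHOBTB3 went from 10.97 to 104 CPM, 9.45-fold higher, and stayed near 98 CPM in the later courses (98.3 and 97.7 CPM). HNF4G, a nuclear receptor of gut and kidney, had 1.88, 15.9, 29.7 and 36.6 CPM in parental cells and courses 1, 3 and 5. LRRK2, a kinase of vesicle trafficking, had 1.94, 13.7, 9.46 and 9.37 CPM, and the muscle kinase gene ALPK3 had 3.23, 28.3, 33.0 and 30.03 CPM. These 5 genes were low in parental cells alone.

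Another set was high in DMSO course 1 and lower again later. PTGDS, the enzyme that makes prostaglandin D2, stood at 14.98, 95.7, 23.3 and 14.0 CPM in parental cells and courses 1, 3 and 5. RGS16, which shortens G-protein signals, stood at 28.9, 156, 34.4 and 34.4 CPM, so its log2 ratio of 2.44 (2.36 to 2.51) in course 1 was 0.25 in both later courses. SOX13, a transcription factor gene, stood at 5.12, 33.8, 21.9 and 13.1 CPM, and the noncoding RNA gene LINC00996 at 12.6, 68.1, 37.0 and 21.7 CPM. The other leading genes were C8orf88, LRRC14B, TRDC, a T-cell receptor constant segment, and the zinc finger genes ZNF880, ZNF610 and ZNF525, with log2 ratios from 2.55 to 3.75. Zinc finger genes of chromosome 19 resemble each other, and reads that align to several of them are not counted, so their single values are uncertain.

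**Figure D2:**
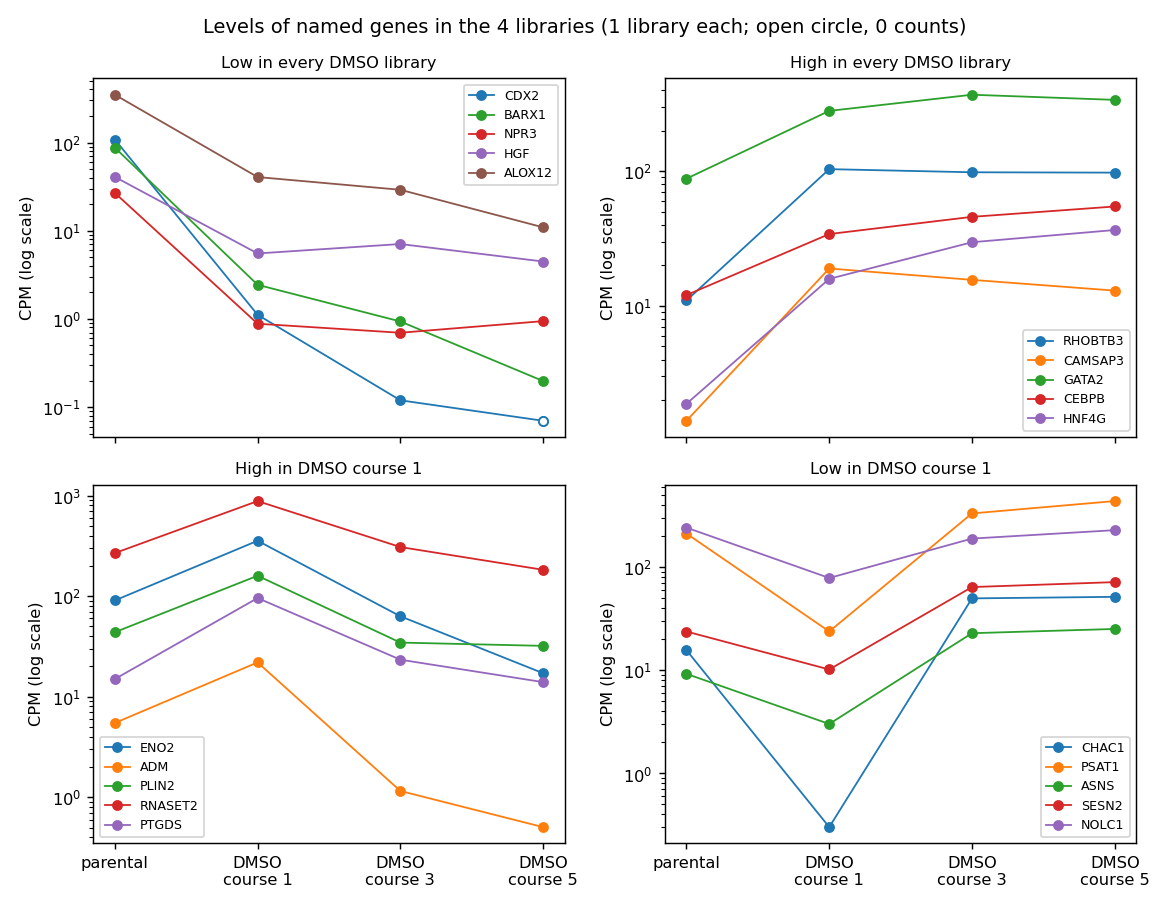
CPM on a log scale (y) in parental cells and in DMSO courses 1, 3 and 5 (x), 1 library each, for genes low in every DMSO library, high in every DMSO library, high in course 1 and low in course 1. CDX2 has 0 counts in course 5 (open circle), and in the lower panels the courses 3 and 5 return towards or past the parental level while course 1 stands apart.

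Among named genes at least 2-fold higher, NDRG1 had the largest difference in CPM. This stress and iron-responsive gene stood at 1199 CPM in parental cells and 3510 CPM in DMSO course 1, a log2 ratio of 1.55 (1.54 to 1.56), with 858 and 527 CPM in courses 3 and 5. The GTPase regulator gene DENND3 stood at 566 and 1324 CPM and the myosin gene MYO1G at 366 and 1042 CPM. TXNIP, which limits glucose uptake and binds thioredoxin, had 659 and 1370 CPM. The lysosomal genes RNASET2, a ribonuclease, TCIRG1, a proton pump subunit, and TPCN1, a cation channel, had 268, 358 and 319 CPM in parental cells and 882, 810 and 729 CPM in DMSO course 1. CPM is not divided by gene length, so these amounts do not rank genes by molecules. Among named genes at least 2-fold lower, the nucleolar protein gene NCL stood first, at 1013 CPM in parental cells and 499 CPM in DMSO course 1. MCM4, SMC4, SLC1A5, CFL1, NOP56 and MAT2A followed ALOX12 with log2 ratios from -1.13 to -1.02, so each was only just past 2-fold.

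Genes that respond to low oxygen were higher in DMSO course 1. Of 28 hypoxia targets outside glycolysis, 22 reached 5 CPM, and 12 of these were at least 2-fold higher and 1 was lower. With total gene counts, with or without the mitochondrially encoded genes, 8 were 2-fold higher, and with TMM over all genes 11 were. The list's median log2 ratio was 1.04, against 0.02 over all genes, and 19 members were above the parental level beyond counting error. ADM, the vasodilator peptide adrenomedullin, stood at 5.48 CPM in parental cells and 21.9 CPM in DMSO course 1, and at 1.15 and 0.505 CPM in courses 3 and 5. MIR210HG, the host RNA of a hypoxia-induced microRNA, had 2.69 and 8.496 CPM, and BNIP3, a mitophagy receptor, had 96.3 and 267 CPM. P4HA1, a collagen prolyl hydroxylase, had 168 and 457 CPM, and KDM3A, a histone demethylase, had 117 and 294 CPM. EGLN1, the oxygen sensor whose own gene responds to hypoxia, had 74.7 and 151 CPM. In ADM, MIR210HG, BNIP3, P4HA1 and KDM3A the order was the same, with course 1 highest, parental next and course 5 lowest.

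The members did not all follow. STC2, a secreted glycoprotein gene that ATF4 also controls, was 5.02-fold lower, at 27.5 CPM in parental cells and 5.48 CPM in DMSO course 1. VEGFA had 423 and 414 CPM, and CA9, a carbonic anhydrase gene often used as a hypoxia marker, had 7.52 and 8.22 CPM. HIF1A, the factor's own gene, had 68.0 and 67.3 CPM, and its counting interval held 1. Of the 6 tested genes for hypoxia factors and oxygen sensors, 0 were 2-fold apart in either direction.

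In glycolysis, 5 of 25 tested genes were at least 2-fold higher, 1 was lower and 20 were above the parental level beyond counting error, with a median log2 ratio of 0.42. The median was -0.51 in course 3 and -0.56 in course 5. ENO2 (ENSG00000111674, chromosome 12), the neuronal enolase, stood at 90.6, 355, 63.1 and 17.1 CPM in parental cells and courses 1, 3 and 5. PFKFB4, which sets the level of the phosphofructokinase activator, stood at 101, 313, 31.8 and 7.92 CPM. The glucose carrier gene SLC2A3 went from 163 to 402 CPM, the aldolase gene ALDOC from 133 to 324 CPM and the hexokinase gene HK2 from 98.9 to 231 CPM. SLC16A1, a lactate carrier, was the 1 member at least 2-fold lower, with a log2 ratio of -1.18. Among the shared enzymes of the pathway, ALDOA and GPI were just under 2-fold, at 0.92 and 0.88, while PGAM1 at -0.05 and TPI1 at 0.10 were near the parental level.

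The core ACGTG was searched on both strands in RefSeq promoters from 250 bases before to 50 after the start. At least 1 match was present in 33.3% of the 8057 tested genes that had a promoter in the table, and in 28 of 39 glycolysis and hypoxia genes. Among those 2-fold higher it was present in 10 of 13, including the ENO2, P4HA1 and BNIP3 stretches printed earlier. ANKRD37, whose stretch was also printed, was not among those 2-fold higher. It was present in 28.5% of all 2-fold higher genes and 38.6% of all 2-fold lower genes. Ribosome biogenesis genes, which were lower, had it in 12 of the 19 with a promoter, so it was not particular to the hypoxia genes. A match is only a run of letters, and these promoters were not assayed.

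Genes of the amino acid response were lower in DMSO course 1, and the medians of its lists lay above the parental level in courses 3 and 5. Of 15 tested enzymes of serine, glycine, proline and one-carbon metabolism, 7 were at least 2-fold lower and 0 higher, with a median log2 ratio of -0.90. PSAT1 (ENSG00000135069, chromosome 9), the transaminase of serine synthesis, stood at 212 CPM (12552 counts) in parental cells and 23.8 CPM (1026 counts) in DMSO course 1. Its log2 ratio was -3.16 (-3.25 to -3.06), and courses 3 and 5 had 332 and 438 CPM. PHGDH, which takes the first step from glycolysis to serine, stood at 157, 38.7, 291 and 385 CPM in parental cells and courses 1, 3 and 5. The mitochondrial folate genes MTHFD1L and ALDH1L2 and the proline synthesis gene PYCR1 had log2 ratios of -2.02, -1.76 and -1.41.

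Amino acid import showed the same direction. Of 13 tested transporters and linked enzymes, 7 were at least 2-fold lower and 0 higher, with a median log2 ratio of -1.03. The alanine transaminase gene GPT2 had 76.9 CPM in parental cells and 19.3 CPM in DMSO course 1. ASNS, which makes asparagine, had 9.25, 3.02, 22.9 and 25.2 CPM in parental cells and courses 1, 3 and 5. SLC7A5, the carrier of large neutral amino acids, had 317, 107, 558 and 756 CPM. The cystine carrier SLC7A11 had 36.3, 13.5, 63.0 and 66.4 CPM, and the glutamine carrier SLC1A5 had 499, 245, 814 and 907 CPM. In each of these carriers the course 1 library was the lowest of the 4.

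Cytosolic tRNA synthetases, which charge tRNAs with amino acids, were 2-fold lower in 6 of 18 and 2-fold higher in 0. WARS went from 116 to 32.7 CPM and GARS from 180 to 54.3 CPM, while DARS had a log2 ratio of 0.42. The list's median was -0.73, with 0.36 and 0.71 in the later courses. The regulators of the response were split. Among 14 tested, the feedback genes CHAC1, SESN2 and TRIB3 were at least 2-fold lower, with log2 ratios of -5.70, -1.22 and -1.06. CEBPB, a partner of ATF4, and PPP1R15A, the phosphatase subunit that ends the response, were higher at 1.51 and 1.24. ATF4 itself stood at 458 CPM in parental cells and 404 CPM in DMSO course 1, a log2 ratio of -0.18. The growth-inhibitory factor DDIT3 had a log2 ratio of 0.67, so it did not go with CHAC1 and TRIB3.

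The element TGATGNAA, searched on both strands in the same promoters, matched in 2.46% of tested genes. Of the 23 genes in the ATF4, serine, transporter and synthetase groups that were 2-fold lower, 12 had a promoter in the table. It matched in 6 of these, ASNS, CHAC1, MTHFD1L, SLC1A5, SLC38A1 and SLC7A1, and in 9 of 36 tested members with a promoter. The match in CHAC1 lies on the opposite strand, as TTGCATCA in the printed stretch.

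Chaperones of the endoplasmic reticulum were lower as well. Of 18 tested, 6 were at least 2-fold lower and 0 higher, with a median log2 ratio of -0.65. HYOU1, a chaperone induced by low oxygen and by misfolded protein, had 120 CPM in parental cells and 37.7 CPM in DMSO course 1, so it stood on the other side from most hypoxia genes. HSPA5, the main luminal chaperone, had 328, 142, 175 and 199 CPM in parental cells and courses 1, 3 and 5. DNAJB11 and SDF2L1, which work with it, had log2 ratios of -1.22 and -1.24. HERPUD1, a gene of protein disposal at that membrane, had 0.37. Among 13 cytosolic and mitochondrial heat shock chaperones 2 were at least 2-fold lower, HSPE1 at -1.15 and HSPH1 at -1.01, while BAG3 had 0.47.

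**Figure D3:**
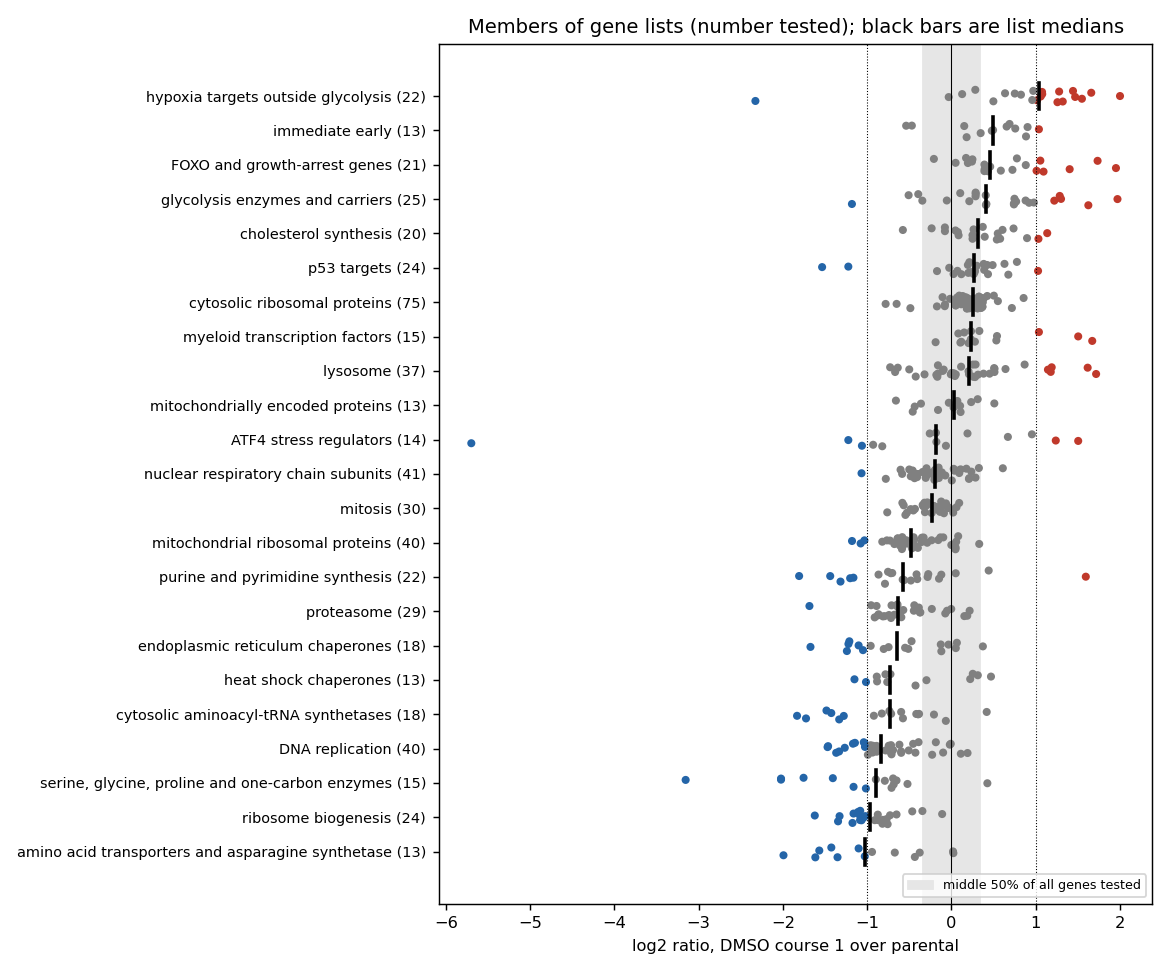
Log2 ratios of DMSO course 1 to parental (x) for the tested members of 23 gene lists (y, number tested in brackets). Red and blue points are members at least 2-fold higher or lower, black bars are list medians and the grey band is the middle 50% of all genes tested, -0.34 to 0.34; the hypoxia list has its median at 1.04, and the amino acid transporter list is at -1.03.

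Ribosome biogenesis genes, which process ribosomal RNA and assemble ribosomes, were lower throughout. All 24 tested ribosome biogenesis genes were below the parental level beyond counting error, 12 of them by at least 2-fold, and the median log2 ratio was -0.97. NOLC1, a chaperone of small nucleolar particles, had 242, 78.7, 190 and 229 CPM in parental cells and courses 1, 3 and 5. UTP20 and RRP12, factors of ribosomal RNA processing, had log2 ratios of -1.35 and -1.33, and POLR1A, the large subunit of RNA polymerase I, had -1.16. The members nearest to the parental level were the fibrillarin gene FBL at -0.34 and the nucleophosmin gene NPM1 at -0.11. For all 24 genes DMSO course 1 was the lowest of the 4 libraries. The E-box CACGTG, searched on both strands and always holding ACGTG as well, was present in 13.2% of tested genes and in 8 of the 19 ribosome biogenesis genes with a promoter. It was present in 20.6% of all 2-fold lower genes.

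The ribosome's own protein genes did not follow its assembly factors. Of 75 cytosolic ribosomal protein genes, 0 were 2-fold apart, and 66 were above the parental level by small amounts with a median log2 ratio of 0.25. RPL13 stood at 1018 CPM in parental cells and 1674 CPM in DMSO course 1, and RPS19 at 1309 and 1919 CPM. Below the parental level were 7, with RPL21, RPS26 and RPL41 lowest at -0.78, -0.65 and -0.49. The others, RPL6, RPL7, RPS3A and RPS7, lay between -0.17 and -0.08. Genes of this list have many processed copies, so single values are uncertain, those of RPL13 and RPS19 included. Translation factors had a median of 0.12, with 10 of 17 above the parental level and 1 past 2-fold, EIF4EBP1 at -1.05. Mitochondrial ribosomal protein genes, a list added after the values were seen, went the other way, with 33 of 40 below, 1 above and a median of -0.48. MRPL12, MRPS28 and MRPS16 were the 3 at least 2-fold lower.

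DNA replication genes were 2-fold lower in 10 of 40 and 2-fold higher in 0, with a median log2 ratio of -0.83. With total gene counts 20 were 2-fold lower, and 17 with totals without mitochondrially encoded genes. MCM3, a subunit of the replicative helicase, stood at 246, 97.6, 166 and 169 CPM in parental cells and courses 1, 3 and 5. MCM10 had a log2 ratio of -1.47, the transcription factor gene E2F1 had -1.46, and CDC6, which loads the helicase, had -1.37. LIG1 at 0.11 and CDT1 at 0.19 were slightly above the parental level. Mitotic genes moved less. Of 30, 0 were 2-fold apart, 25 were below the parental level, and the median was -0.23, with MAD2L1 lowest at -0.76 and the proliferation marker MKI67 at -0.29. Of 16 tested G1 regulators 7 were above the parental level and 8 below, with a median of -0.02. The 1 member past 2-fold was E2F4 at -1.09, and the cyclin gene CCND2 was highest at 0.99. MYC stood at 809 CPM in parental cells and 591 CPM in DMSO course 1, a log2 ratio of -0.45, and the cyclin-dependent kinase gene CDK4 at 135 and 71.1 CPM.

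Lists added after the values had been seen extended this description and carry less weight for that reason. In purine and pyrimidine synthesis 5 of 22 genes were at least 2-fold lower, among them CTPS1 at -1.81, NME1 at -1.44 and CAD at -1.32, and 1 was higher, the muscle adenylosuccinate synthase gene ADSSL1 at 1.60. Of 29 proteasome genes 25 were below the parental level, with a median of -0.63 and PSMD1 at -1.69 as the 1 gene past 2-fold. Proteasome genes 2-fold lower were 4 with total gene counts and 3 with totals without mitochondrially encoded genes. Of 20 chaperonin and mitochondrial import genes 3 were at least 2-fold lower, TIMM23, TOMM40 and CCT5. Among 21 genes of nuclear transport and polyamine or RNA metabolism 7 were at least 2-fold lower, led by the spermidine synthase gene SRM at -1.59 and the translation factor gene EIF5A at -1.36.

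Genes that FOXO factors and growth arrest are known to raise stood on the opposite side. Of 21 in that list, also added later, 6 were at least 2-fold higher and 0 lower, with a median log2 ratio of 0.46. Under total gene counts, with or without the mitochondrially encoded genes, 3 were 2-fold higher. SESN3, a sestrin that restrains the growth kinase complex mTORC1, stood at 7.27, 28.2, 16.2 and 14.3 CPM in parental cells and courses 1, 3 and 5. YPEL3, a growth-suppressive gene, had 55.5, 185, 50.2 and 35.7 CPM. The arrestin-family gene ARRDC3, the KLHL24 gene, TXNIP and CCNG2, an unconventional cyclin that slows division, had log2 ratios of 1.40, 1.09, 1.06 and 1.01. CDKN1B, the cell cycle inhibitor p27, was above the parental level by 0.39.

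Targets of p53, the DNA damage factor, were mostly above the parental level, by small amounts. Beyond counting error 18 of 24 were above it and 2 were below. Of 24 tested, 1 was at least 2-fold higher, the DNA damage sensor DDB2 at 1.03, and 2 were lower, the nuclease gene AEN at -1.53 and SESN2, which ATF4 also controls. CDKN1A, the p21 inhibitor, had a log2 ratio of 0.28 and MDM2 had 0.38, near the list's median of 0.27. In the BCL2 family BCL2A1, a survival gene, was 2-fold higher at 1.29, the death gene BCL2L11 had 0.91 and BID had -0.67. Immediate early genes were above the parental level in 10 of 13, with JUNB at 0.90, FOS at 0.89 and KLF10 at 1.04. STAT5 output genes were above in 9 of 11, with the kinase gene PIM2 at 1.12, SOCS3 at 0.91 and SOCS2 at -0.56. NF-kB target genes were above in 7 of 10, with 0 past 2-fold. Over all genes 44% were above. The median log2 ratios of the immediate early, STAT5 and NF-kB lists were 0.49, 0.49 and 0.39. ERK feedback genes had 0 of 12 past 2-fold and a median of -0.14.

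The markers of the line were present in both libraries. CD33, a surface protein of myeloid cells, stood at 239 CPM in parental cells and 233 CPM in DMSO course 1. The receptor kinase gene FLT3 had 392.3 and 521 CPM, the myeloperoxidase gene MPO 551 and 932 CPM and the homeobox gene HOXA9 88.3 and 87.0 CPM. The homeobox cofactor gene MEIS1 was below the parental level, at 69.3 and 48.8 CPM. Markers of other cell types were few. Of 16 erythroid and megakaryocyte markers 2 reached 5 CPM and 9 had 0 counts in both libraries, among them the globin genes HBA1 and HBA2, with a summed level of 47.7 CPM in parental cells and 69.4 CPM in DMSO course 1. Of 12 T and NK markers 2 reached 5 CPM, TRAC at a log2 ratio of 0.57 and NKG7 at 0.65, and the sums were 122 and 175 CPM. Under that level, the T-cell receptor chain gene CD3D went from 243 to 24 counts and the granulysin gene GNLY from 296 to 47. B cell markers summed to 9.57 and 5.62 CPM, epithelial markers to 53.1 and 32.8 CPM, and fibroblast and endothelial markers to 136 and 181 CPM, nearly all of it PECAM1, which myeloid cells also express. The keratin gene KRT18 was the 1 epithelial marker 2-fold lower, at 28.5 and 11.7 CPM, while EPCAM was at 0.0169 and 0.0232 CPM. The part of such cells in the other values was not tested.

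Within the myeloid program, transcription factors were above the parental level in 14 of 15 and 2-fold higher in 3. GATA2, a factor of blood stem and mast cells, had 88.1, 281, 370 and 339 CPM in parental cells and courses 1, 3 and 5. CEBPB and CEBPD, factors of granulocyte and macrophage maturation, had 12.04 and 87.0 CPM in parental cells and 34.2 and 179 CPM in DMSO course 1. SPI1, which encodes PU.1, had 241 and 351 CPM. The aminopeptidase gene ANPEP, the myeloid surface protein CD13, went from 11.1 to 43.8 CPM. It was the 1 of 14 tested surface and cytokine receptors past 2-fold, a share near the 7.96% of all genes. TPSB2, a mast cell tryptase gene with a near-identical neighbour and therefore uncertain, had 11.8 and 50.2 CPM.

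Effector genes of mature cells were mixed. Among 10 tested neutrophil granule genes CTSG, the serine protease cathepsin G, was 2-fold lower at 210 and 70.9 CPM, and the ribonuclease genes RNASE2 and RNASE3 had log2 ratios of -1.12 and -1.14. S100A9, a calcium-binding alarmin, was higher at 3.26 and 8.47 CPM, with 0.677 and 0.263 CPM in courses 3 and 5. Monocyte genes had 1 of 10 past 2-fold, near the 7.96% of all genes, and a median log2 ratio of 0.05. That member was the chemokine receptor gene CX3CR1, at 13.3 and 4.02 CPM. The inhibitory Fc receptor gene FCGR2B and its paralog FCGR2C, which share reads and are uncertain, had log2 ratios of -1.33 and -1.98, and the Fc signalling chain FCER1G was at 1.00. HOXA5 was 2-fold higher, at 3.53 and 8.75 CPM, among 9 tested genes of the HOXA cluster and its cofactors. The osteopontin gene SPP1 had 16.5 and 5.87 CPM.

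Lipid genes, a theme of the study, were divided by pathway in their list medians. In cholesterol synthesis 2 of 20 genes were at least 2-fold higher, the genes CYP51A1 and MSMO1, whose enzymes strip methyl groups from sterols, at 1.14 and 1.03. In that list 13 were above the parental level, with a median log2 ratio of 0.32. Over all genes 3.72% were 2-fold higher, 4.24% were 2-fold lower and 44% were above. A count of 2 members in a short list is too small to set against those shares. Of 13 genes of cholesterol uptake, export and control, STARD4, a sterol carrier, had 64.7 and 162 CPM. MYLIP, a ubiquitin ligase gene, had 152 and 442 CPM. Fatty acid synthesis went the other way, with a median of -0.53 and 2 of 13 genes 2-fold lower. These were the desaturase gene FADS1 at -1.35 and the elongase gene ELOVL6 at -1.01, while FASN had -0.85. Of 16 fatty acid oxidation genes 0 were 2-fold apart, with a median of -0.05. Under TMM scaling of the 2 libraries alone a member more passed the filter, and over 17 genes the median was 0.01. PLIN2, the coat protein of lipid droplets, stood at 43.8, 160, 34.5 and 32.0 CPM in parental cells and courses 1, 3 and 5. Together with HILPDA at 1.26 it was higher, opposite to G0S2 in the same list of 12 tested genes.

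Mitochondrial messages showed no common shift. Of the 13 protein genes of mitochondrial DNA, 7 were above the parental level and 6 below, 0 were 2-fold apart, and the median log2 ratio of 0.03 turned negative with total count scaling and with TMM over all genes. MT-CYB was lowest, at 6786 CPM in parental cells and 4298 CPM in DMSO course 1, and MT-ND6, encoded on the other strand, was highest, at 177 and 252 CPM. Mitochondrial ribosomal RNA made up 4.23% of the gene counts of DMSO course 1, against 2.09% before treatment and 2.55% and 1.97% after courses 3 and 5. The part of this share in the other values was not tested. Nuclear genes of the respiratory chain were below the parental level in 28 of 41, against 40.4% of all genes, with a median of -0.20. ATP5MC1 at -1.07 was the 1 gene of 41 past 2-fold, against 4.24% of all genes 2-fold lower. Of 18 genes that maintain mitochondrial DNA, PPRC1 and the helicase gene TWNK were 2-fold lower at -1.22 and -1.02, and TFAM, which packages that DNA, had -0.76.

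In the NRF2 and glutathione list 2 of 22 genes were at least 2-fold lower, against 4.24% of all genes. HMOX1, which breaks down heme, had 12.1, 2.69, 0.757 and 0.658 CPM in parental cells and courses 1, 3 and 5, and SLC7A11 was the other. GCLM and GCLC, which make the first bond of glutathione, had log2 ratios of -0.73 and -0.62, and GPX1, a peroxidase, had 0.63. The ferritin chain genes FTL and FTH1 had 0.67 and 0.62, while the transferrin receptor gene TFRC had -0.36. Lysosomal genes, a list added after the values were seen, were 2-fold higher in 5 of 37 and 2-fold lower in 0. They were RNASET2, the sulfatase gene SGSH, TPCN1, TCIRG1 and the ceramidase gene ASAH1, while LAMP1 at -0.67 was below the parental level.

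The ratios differed by chromosome. Chromosome 19 had a median log2 ratio of 0.22 over 834 genes, and 61 of them (7.31%) were 2-fold higher and 17 (2.04%) lower. The medians of the other chromosomes ran from -0.08 on chromosome 4 to 0.09 on chromosome 18. On chromosome 19 the median was -0.03 in course 3 and -0.08 in course 5. Of its 139 zinc finger genes 13 were 2-fold higher and 2 lower, with a median of 0.32, against 0.01 over 183 zinc finger genes elsewhere. The other 695 genes of the chromosome had a median of 0.19. The highest median among the runs of 40 neighbouring tested genes examined was 0.61, from ETFB to EPS8L1 on chromosome 19, with 11 genes 2-fold higher and 1 lower. The 20% of genes with the highest GC in the longest transcript had a median of 0.14, and the medians of the other 4 GC bins of equal size lay between -0.02 and 0.02. Within the top bin, chromosome 19 had 0.22 and the other chromosomes 0.12. The medians over 5 such bins of mean CPM ran from -0.07 to 0.15, and over those of exonic length from -0.03 to 0.10. The part of these features in the chromosome 19 value was not tested further.

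**Figure D4:**
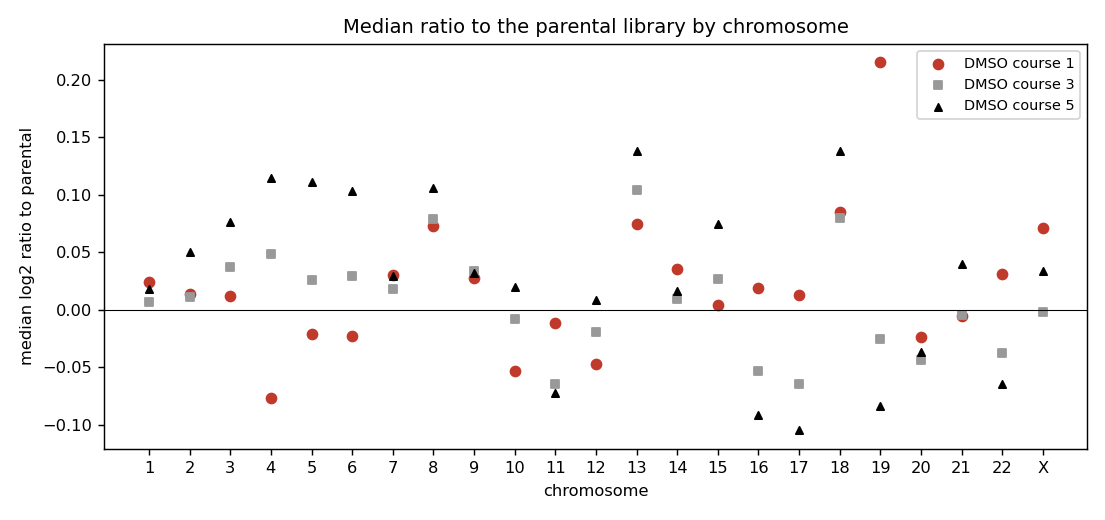
Median log2 ratio to the parental library (y) over tested genes of each chromosome (x), for DMSO course 1 (red circles), course 3 (grey squares) and course 5 (black triangles), all set against the same parental library. Chromosome 19 stands at 0.22 in course 1 and below 0 in both later courses; the other chromosomes lie between -0.08 and 0.09 in course 1.

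Pairs of neighbours at least 4-fold apart from the parental level in 1 direction were few. Besides CDX2 with URAD they were ZNF610 with ZNF880 on chromosome 19, whose starts lie 33.7 kb apart, and on chromosome 3 C3orf80 with the antisense gene IL12A-AS1, at -5.20 and -3.71 and with 1 tested gene between them. The laminin chain gene LAMB3, at -2.47, made a pair with G0S2 on chromosome 1. Long noncoding RNA genes were 2-fold higher in 30 of 359 (8.36%) and lower in 9 (2.51%), with a median log2 ratio of 0.20, against 0.01 over 9763 protein-coding genes.

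The parental library held 56825811 gene counts and that of DMSO course 1 held 44795976, and 25110 and 23889 genes had at least 1 count. The SD over genes of the log2 difference was 0.61 between the 2 libraries, 0.62 between courses 1 and 3 and 0.31 between courses 3 and 5. Reads with more than 1 alignment were 13.9% and 15.4% of the total, and reads outside genes 9.13% and 9.79%. Of the 48036 genes under 5 CPM, 31865 had 0 counts in both libraries. Just inside that limit was ZDHHC23 at 5.34 and 4.67 CPM, and just outside it SLC25A20 at 4.31 and 5.69 CPM.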

How the data were processed

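RNA of MOLM-13 cultures was sequenced with a TruSeq RNA kit, per the labels' protocols. The authors deposited unnormalized read counts for each Ensembl gene ID, in 4 of the 8 samples, and the other 4 samples were not analysed here. The submitters' processing notes name hg19 as the build and TopHat2 2.0.11, HTSeq 0.6p1 and FastQC 0.11.5 as tools. All 58735 gene IDs matched GENCODE release 29, an annotation of GRCh38, so it is unclear which build was counted, and only chromosomes and distances between starts are given from it. Promoters came from RefSeq on GRCh38.p14, in a table that is not complete. Per the deposited file names, counting was reverse-stranded. The summary entries (24.9% and 27.1% of the reads) were left out.

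CPM was computed in R 4.3.3 with edgeR 4.0.16, with TMM factors over all 4 libraries on 18612 genes kept by filterByExpr (minimum count 10, minimum total 15). A gene counted as 2-fold higher or lower where its mean over both libraries was at least 5 CPM, the ratio at least 2-fold and the exact binomial (Clopper-Pearson) 95% interval of the 2 counts excluded 1. For a library with 0 counts of a gene, 3 counts were taken as the floor. Intervals cover counting error only, and the labels name 1 culture per group. SDs of log2 differences used a prior count of 2. The computation was tested on simulated counts.

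The comparison, the members and the gene lists were chosen with earlier results of these data known, and 7 of 56 lists were added after the values were seen. Named genes are the 15 with the largest ratio and the 8 with the largest CPM difference in each direction, and up to 5 members of each list with the largest ratio, leaving out pseudogenes with numbers, clone names, small RNAs and Y-linked genes. Other list members and neighbours named in the text were chosen after their values were seen. Alternatives were other scalings (total counts, totals without mitochondrially encoded genes, DESeq2 1.42.0 size factors, TMM over 2 libraries or over all genes), filters, folds, a 99% interval and prior counts. Some genes of the lists are not reported here.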

Additional observations from a re-analysis of the deposited data

Results flagged for a closer look

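Only the genes named by rule, with up to 5 members of each list, were searched for opposite directions between courses. Of these, 15 were at least 2-fold from parental in course 1 and at least 2-fold the other way in courses 3 and 5. Other list members were not searched for this pattern. The difference between courses was not tested, and the 3 ratios share the parental library. Values are log2 ratios to parental in courses 1, 3 and 5. Among hypoxia and glycolysis genes, ADM had 2.00, -2.25 and -3.44, MIR210HG 1.66, -2.17 and -6.94, BNIP3 1.47, -1.16 and -2.03 and STC2 -2.33, 1.35 and 1.83. The MIR210HG value in course 5 rests on 1 count, with an interval of -12.2 to -4.44. PFKFB4 had 1.63, -1.67 and -3.68, SLC2A3 1.30, -1.21 and -1.54 and ALDOC 1.29, -1.67 and -3.18. In the amino acid response CHAC1 had -5.70, 1.67 and 1.72, SESN2 -1.22, 1.43 and 1.59 and TRIB3 -1.06, 1.32 and 2.29. ALDH1L2 had -1.76, 1.13 and 1.59 and ASNS -1.62, 1.31 and 1.45. The histone gene HIST1H2AC had 1.12, -1.16 and -1.22, the granule gene S100A9 1.38, -2.27 and -3.63 and the lysosomal gene SGSH 1.62, -1.24 and -2.73. These counts come from 1 library per course, and mitochondrial ribosomal RNA was also highest in DMSO course 1, at 4.23% of gene counts.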

How the results depend on the processing

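Genes at least 2-fold higher and lower numbered 279 and 666 with total gene counts, 298 and 663 with totals without mitochondrially encoded genes, 400 and 442 with DESeq2 size factors, 383 and 474 with TMM over the 2 libraries and 357 and 504 with TMM over all genes, an alternative chosen after seeing the data. They numbered 673 and 802 with the filter at 1 CPM, 1352 and 1513 at 1.5-fold and 29 and 50 at 4-fold. The SD of the log2 difference was 0.62 with totals without mitochondrially encoded genes, 0.70 at 1 CPM and 0.58 at 10 CPM. List medians turned sign under total gene counts, totals without mitochondrially encoded genes or TMM over all genes where they were near 0. In that order of scalings, mitochondrially encoded proteins had -0.0883, -0.0750 and -0.00625 and small nucleolar RNA host genes -0.0877, -0.0744 and -0.00565. Under the first and the next of these, the lipid droplet list had -0.0763 and -0.0630, monocyte maturation -0.0617 and -0.0484, iron and heme -0.0218 and -0.00852 and interferon response -0.0252 and -0.0119. Fatty acid oxidation had 0.00611 with TMM over the 2 libraries, where 17 rather than 16 members passed the filter. Of 285 named genes, 0 changed direction under these 5 scalings, and 16, 13, 4, 2 and 1 crossed the 2-fold line with total counts, totals without mitochondrially encoded genes, TMM over all genes, DESeq2 size factors and TMM over the 2 libraries. Leaving out a replicate was not run, since each side has 1 library. No paired analysis was possible because the comparison has 1 library a side and no test. Depth limits genes under 5 CPM, of which 48036 were left out.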
